A study of Arabidopsis thaliana with 12 samples.

Results

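Salicylic acid is the plant hormone of defence against biotrophic pathogens, and 10 Arabidopsis thaliana genes for its synthesis and signalling were followed here. They were taken by their AGI identifiers as ICS1 (AT1G74710), PBS3 (AT5G13320), EDS5 (AT4G39030), EDS1 (AT3G48090), PAD4 (AT3G52430), PR1 (AT2G14610), PR2 (AT3G57260), PR5 (AT1G75040), WRKY54 (AT2G40750) and WRKY70 (AT3G56400). All 10 are among the 32678 genes of the count table, and 9 of them passed the filter on low counts that left 19148 genes for the tests. PR1 did not pass. RNA was sequenced from Col wild type and from clf plants, which lack normal function of CURLY LEAF (CLF), a Polycomb enzyme that methylates histone H3 to keep genes repressed. Seedlings of both genotypes spent 12 days on B5 and then 3 days on medium with or without sufficient iron, at 22 °C in days of 16 h of light with 8 h nights. The 4 groups, wild type and clf each on sufficient and on deficient iron, held 3 libraries each. Nothing used here names the clf allele, the number of plants per library or the cultures behind the replicates. The p-values therefore reflect the spread among these libraries alone, which may be technical.

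In Arabidopsis most salicylic acid made during defence comes from isochorismate. ICS1 makes isochorismate in the plastid, EDS5 exports it, and PBS3 joins it to glutamate, a product that EPS1 or spontaneous decay turns into salicylic acid. The lipase-like proteins EDS1 and PAD4 work together upstream of this route. The hormone acts through NPR1 and its relatives with TGA factors on genes such as PR1, PR2 and PR5, whose products are secreted defence proteins, while WRKY54 and WRKY70 are transcription factors that restrain salicylic acid accumulation and also take part in the response to it.

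The 250 bases before the annotated start are shown for ICS1, PBS3, EDS1 and WRKY54, the 4 members that passed the test in at least 1 comparison, and for WRKY70, the closest relative of WRKY54 here. They are read from the RefSeq TAIR10.1 genome on the strand of the gene, 5′ to 3′, at chr1:28070045-28070294 (plus strand), chr5:4267206-4267455 (plus), chr3:17758148-17758397 (minus), chr2:17002529-17002778 (minus) and chr3:20910624-20910873 (minus). Capitals mark matches on either strand to TTGAC (the core of the W box bound by WRKY factors), TGACG (the core of the TGA factor element), GAAATTT (bound by CBP60g and SARD1) or AATATCT (the end of the evening element).
ICS1: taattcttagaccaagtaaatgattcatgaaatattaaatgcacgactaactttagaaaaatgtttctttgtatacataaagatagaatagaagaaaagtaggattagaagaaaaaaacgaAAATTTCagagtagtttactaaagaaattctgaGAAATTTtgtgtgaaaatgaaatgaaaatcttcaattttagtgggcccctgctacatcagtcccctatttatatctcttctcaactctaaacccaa
PBS3: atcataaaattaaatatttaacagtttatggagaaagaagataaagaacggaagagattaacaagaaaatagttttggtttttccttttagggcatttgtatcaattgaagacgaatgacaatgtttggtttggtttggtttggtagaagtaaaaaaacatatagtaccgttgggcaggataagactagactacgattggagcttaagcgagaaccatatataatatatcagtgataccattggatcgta
EDS1: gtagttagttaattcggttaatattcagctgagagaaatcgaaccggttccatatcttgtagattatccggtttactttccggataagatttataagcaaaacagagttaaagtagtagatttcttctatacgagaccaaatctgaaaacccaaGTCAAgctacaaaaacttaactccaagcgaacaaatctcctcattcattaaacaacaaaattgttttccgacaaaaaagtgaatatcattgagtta
WRKY54: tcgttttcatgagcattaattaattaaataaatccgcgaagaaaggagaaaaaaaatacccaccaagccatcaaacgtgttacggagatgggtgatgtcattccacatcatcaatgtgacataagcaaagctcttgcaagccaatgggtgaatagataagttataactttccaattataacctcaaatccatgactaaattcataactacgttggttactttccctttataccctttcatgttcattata
WRKY70: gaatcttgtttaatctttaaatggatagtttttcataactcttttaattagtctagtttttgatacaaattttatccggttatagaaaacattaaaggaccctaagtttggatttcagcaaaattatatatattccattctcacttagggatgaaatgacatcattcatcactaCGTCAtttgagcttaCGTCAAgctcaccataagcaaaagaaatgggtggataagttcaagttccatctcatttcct
The ICS1 window held 2 matches to GAAATTT, at 129 to 123 bases before the start on the opposite strand and at 96 to 90 bases on the strand of the gene. The EDS1 window held 1 TTGAC match, at 96 to 92 bases. The WRKY70 window held 2 TGACG matches, of which the one nearer the start overlaps the single TTGAC match. The PBS3 and WRKY54 windows held none of the 4 motifs. Over all 10 members, TTGAC was found in 5 windows and each of the other 3 motifs in 1. Of 27443 windows of the same length before annotated genes, 44.9% held TTGAC, 18.6% TGACG, 12.5% GAAATTT and 10% AATATCT. A match is a string of letters and not a tested binding site.

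Counts per library summed to between 16092041 and 20706803 in the 6 libraries on sufficient iron and to between 21297005 and 29400813 in the 6 on deficient iron, and the part of this gap in depth in the results was not tested. The source name, titles and design call the tissue shoot, while a tissue tag and the extraction text call it root. The 8 leaf markers summed to between 54430 and 113900 CPM (counts scaled to TMM-adjusted library size) in every library, against 354 to 768 CPM for 14 root markers. CLF had 13.1 to 17.1 CPM in the 6 wild-type libraries and 3.09 to 5.398 CPM in the 6 clf libraries. In each group 1 library stood apart by its clock genes, namely replicate 3 of iron-sufficient wild type, replicate 2 of iron-deficient wild type and replicate 3 of clf on either medium. TOC1, an evening gene, was at 30.2 to 59.6 CPM in these 4 libraries and at 9.44 to 13.0 CPM in the other 8, and LHY, a morning gene, was at 65.2 to 231 CPM against 204 to 443 CPM. Several of the genes below moved with that difference, so calls are also given without the 4 libraries. Each group then keeps its other 2 libraries. The 4 were named from these same data, and their omission raised the share of all genes called, for clf on deficient iron from 6.47% to 16.9%. A lower adjusted p there is therefore no separate support for a call.

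**Figure D1:**
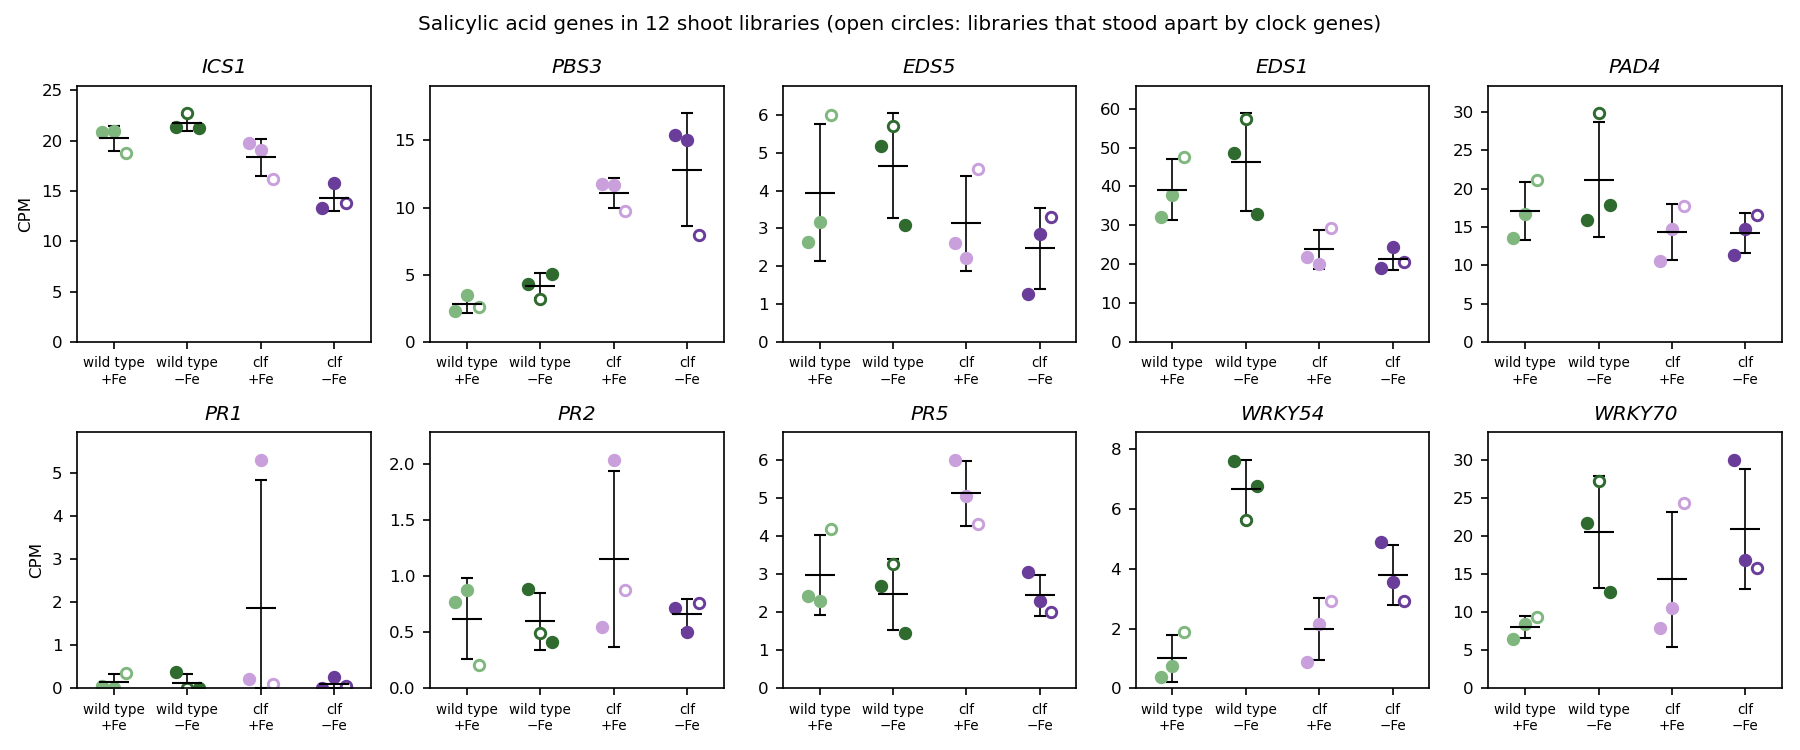
CPM of the 10 genes in each of the 12 libraries, by genotype and iron supply (+Fe sufficient, −Fe deficient), with the group mean as a horizontal line and ± 1 SD (n = 3) as a bar that is cut at 0 for PR1. Open circles are the 4 libraries that stood apart by clock genes. PBS3 is higher in clf at both iron levels, WRKY54 rises with iron deficiency in wild type from at most 1.89 to at least 5.62 CPM, and PR1 is above 0.37 CPM in 1 library only, at 5.30 CPM.

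Per length of transcript, the 10 genes spanned a wide range of levels. On the authors' FPKM scale (fragments per kilobase of transcript and library size), the median over the 12 libraries was 14.1 for WRKY70, 13.7 for EDS1, 9.08 for ICS1, 8.60 for PAD4, 3.64 for PBS3, 3.06 for PR5, 2.25 for WRKY54, 1.62 for EDS5, 0.587 for PR2 and 0.108 for PR1. The ranges over libraries of every 2 neighbours in this order overlapped, so only distant places in it are separated. EDS1, from 9.40 to 28.2 FPKM, lay above EDS5, from 0.647 to 2.88 FPKM, in every library.

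Deficient against sufficient iron in wild type asks which of these genes respond to iron supply. By the quasi-likelihood test of edgeR, Benjamini-Hochberg adjusted over all tested genes, which gives every adjusted p below unless another tool is named, 1 of 9 tested members passed at an adjusted p under 0.05. It was WRKY54, which rose. Over all genes, 9.12% passed in that comparison, 4.61% higher and 4.52% lower. The median log2 fold change was 0.24 over the 9 members and 0.01 over all genes. In clf, iron deficiency gave 0 calls among the 9 members by edgeR and 0 by DESeq2, with 2 at an unadjusted p under 0.05 in edgeR, against 1.52% of all genes called by edgeR (0.752% higher, 0.768% lower) and 4.88% by DESeq2. Without the 4 libraries that stood apart, WRKY54 and WRKY70 passed in both genotypes, where 16.9% of all genes passed in wild type and 8.69% in clf.

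Clf against wild type asks what loss of CLF does at each iron level. On sufficient iron 1 of 9 members passed, PBS3, which was higher in clf, against 4.91% of all genes called and 3.59% called higher. DESeq2 called PBS3 and EDS1 there, against 8.75% of all genes. On deficient iron 3 of 9 passed, PBS3 higher and ICS1 and EDS1 lower, against 6.47% of all genes called, 4.01% higher and 2.46% lower. The median log2 fold change of the 9 members was 0.79 on sufficient and -0.58 on deficient iron, against -0.01 over all genes in both. Without the 4 libraries that stood apart, EDS1 and PR5 passed beside PBS3 on sufficient iron, where 10.2% of all genes passed, and the same 3 genes passed on deficient iron as with all libraries, where 16.9% passed. The iron comparisons and the clf comparisons use the same 4 groups, so their values are not independent of each other.

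ICS1, the first gene of the route, spanned 0.77 on the log2 CPM scale over the 12 libraries, the narrowest range of the 10 genes. Its values were 20.9, 21.0 and 18.8 CPM in iron-sufficient wild type, 21.3, 22.7 and 21.3 CPM in iron-deficient wild type, 19.7, 19.0 and 16.2 CPM in iron-sufficient clf, and 13.3, 15.8 and 13.8 CPM in iron-deficient clf. The 3 clf libraries on deficient iron were thus below all 9 others, and the iron-deficient wild type was above its iron-sufficient counterpart in every library by a small margin. The difference between clf and wild type on deficient iron was -0.61 on the log2 scale (SE 0.11, adjusted p 0.0100). The adjusted p was 0.0557 without replicate 1 of clf on deficient iron, and 0.0531 to 0.0604 by limma on log2 FPKM. The iron effects were 0.11 in wild type (adjusted p 0.618) and -0.36 in clf (adjusted p 0.157), and their difference of -0.46 (95% interval -0.81 to -0.12) had an adjusted p of 0.578.

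PBS3, the amidosynthetase that acts after ICS1, had the largest clf effect of the 9 tested members at both iron levels. Its values were 2.32, 3.52 and 2.59 CPM in iron-sufficient wild type, 4.27, 3.20 and 5.06 CPM in iron-deficient wild type, 11.8, 11.6 and 9.77 CPM in iron-sufficient clf, and 15.4, 15.05 and 7.99 CPM in iron-deficient clf. Every clf library lay above every wild-type library. The clf effect was 1.98 on the log2 scale on sufficient iron (SE 0.28, adjusted p 0.00352), a 3.94-fold difference, and 1.61 on deficient iron (SE 0.27, adjusted p 0.00647), a 3.06-fold difference. Both calls held without the 4 libraries that stood apart, at 2.01 (adjusted p 0.000290) and 1.70 (adjusted p 0.000267), and without any single library, with a highest adjusted p of 0.0325. Iron deficiency gave 0.58 in wild type (adjusted p 0.237) and 0.21 in clf (adjusted p 0.803).

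EDS5, the MATE transporter of the plastid envelope, carried few reads. It was at 2.65, 3.18 and 6.02 CPM in iron-sufficient wild type, 5.19, 5.71 and 3.10 CPM in iron-deficient wild type, 2.62, 2.21 and 4.58 CPM in iron-sufficient clf, and 1.26, 2.86 and 3.29 CPM in iron-deficient clf. All groups overlapped, and no comparison passed the test; the clf effect on deficient iron was -0.91 (95% interval -1.87 to 0.06, adjusted p 0.285). EDS5 overlaps AT4G39040 on the opposite strand, and because no source used here states the strand setting of the counting, reads of the 2 genes cannot be told apart in their overlap.

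EDS1 was lower in clf. It was at 32.1, 37.8 and 47.7 CPM in iron-sufficient wild type, 48.6, 57.5 and 32.8 CPM in iron-deficient wild type, 21.9, 20.0 and 29.4 CPM in iron-sufficient clf, and 19.1, 24.5 and 20.5 CPM in iron-deficient clf. All 6 clf libraries were below all 6 wild-type libraries. On deficient iron the log2 difference was -1.11 (SE 0.23, adjusted p 0.0174), a call lost without replicate 1 (adjusted p 0.0539) or replicate 2 (0.0542) of wild type on deficient iron or without replicate 1 of clf on deficient iron (0.0803). On sufficient iron it was -0.72 (SE 0.23, adjusted p 0.108), which passed without the 4 libraries that stood apart (-0.74, adjusted p 0.0378). Averaged over both iron levels the clf effect was -0.92 (adjusted p 0.00415), and no single library carried that call. EDS1 lies 138 bases from its relative AT3G48080 on chromosome 3 and on the same strand, and 0.977% of its 50-base exon stretches occur elsewhere in the genome. With the counts of both genes summed, the clf effect on deficient iron was -1.15 (adjusted p 0.0158).

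PAD4, the partner of EDS1, was at 13.5, 16.6 and 21.1 CPM in iron-sufficient wild type, 15.9, 29.8 and 17.8 CPM in iron-deficient wild type, 10.5, 14.7 and 17.7 CPM in iron-sufficient clf, and 11.3, 14.8 and 16.5 CPM in iron-deficient clf. The groups overlapped in every comparison. The clf effect of -0.58 on deficient iron (95% interval -1.19 to 0.04) had an adjusted p of 0.284. With a model term for the 4 libraries that stood apart it was -0.54 (adjusted p 0.0412), in a fit that called 16.4% of all genes. Without that term and with all libraries, the 3 other comparisons gave between -0.25 and 0.31.

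WRKY54 had the largest fitted iron effect in wild type of the 9 tested members. It was at 0.387, 0.744 and 1.89 CPM in iron-sufficient wild type, 7.59, 5.62 and 6.75 CPM in iron-deficient wild type, 0.874, 2.15 and 2.93 CPM in iron-sufficient clf, and 4.90, 3.55 and 2.93 CPM in iron-deficient clf. In raw counts the wild-type groups held 45 and 539 reads. The wild-type groups were far apart, while the clf groups met at 2.93 CPM, and wild type was above clf on deficient iron in every library. The clf effect did not pass at either iron level. It was -0.81 on deficient iron (95% interval -1.88 to 0.25, adjusted p 0.395) and 1.00 on sufficient iron (95% interval -0.20 to 2.20, adjusted p 0.361). The iron effect in wild type was 2.74 on the log2 scale (SE 0.54, adjusted p 0.0116), a 6.69-fold rise. It was 3.68 without the 4 libraries that stood apart (adjusted p 0.000372), and the adjusted p was 0.0531 without replicate 2 of iron-sufficient wild type. In clf the iron effect was 0.93 (95% interval -0.18 to 2.03, adjusted p 0.436), and 1.48 without the 4 libraries (adjusted p 0.0429). The difference between the 2 iron effects was -1.82 (95% interval -3.42 to -0.21), with an unadjusted p of 0.0299 and an adjusted p of 0.639, so a weaker response in clf did not pass the test.

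WRKY70 was the more abundant of these transcription factors. It stood at 6.52, 8.39 and 9.37 CPM in iron-sufficient wild type, 21.7, 27.3 and 12.6 CPM in iron-deficient wild type, 7.92, 10.6 and 24.4 CPM in iron-sufficient clf, and 30.0, 16.8 and 15.8 CPM in iron-deficient clf. The wild-type groups did not overlap and the clf groups did, through the library at 24.4 CPM, which is the one that stood apart. The iron effect in wild type was 1.34 (SE 0.43, adjusted p 0.0821), with an adjusted p of 0.0164 by DESeq2, which called 13.7% of all genes, and of 0.0264 by edgeR without the 4 libraries. In clf it was 0.54 (adjusted p 0.630), and 1.33 (adjusted p 0.0257) without the 4 libraries. The clf effects of 0.82 on sufficient iron and 0.03 on deficient iron did not pass.

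Among the marker genes of the salicylic acid response, PR1 was nearly silent. Its raw counts were 1, 0 and 5 in wild type on sufficient iron, 10, 0 and 0 on deficient iron, 4, 91 and 2 in clf on sufficient iron and 0, 8 and 2 in clf on deficient iron. The 91 reads of replicate 2 of clf on sufficient iron, 5.30 CPM, stand alone. With no filter on low counts, the clf effect on sufficient iron had an adjusted p of 0.326. A library with 0 reads still allows up to 3 counts, and such limits cover counting error only, since reads without molecular identifiers are not independent molecules.

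PR2, a beta-1,3-glucanase gene, was at 0.774, 0.880 and 0.210 CPM in iron-sufficient wild type, 0.884, 0.493 and 0.413 CPM in iron-deficient wild type, 0.547, 2.04 and 0.874 CPM in iron-sufficient clf, and 0.720, 0.503 and 0.762 CPM in iron-deficient clf. Its highest value was in the library that also held the 91 PR1 reads, the groups overlapped throughout, and no comparison passed. PR5, a thaumatin-like protein gene, was at 2.43, 2.30 and 4.20 CPM in iron-sufficient wild type, 2.69, 3.28 and 1.45 CPM in iron-deficient wild type, 6.01, 5.07 and 4.32 CPM in iron-sufficient clf, and 3.06, 2.29 and 2.01 CPM in iron-deficient clf. The 3 clf libraries on sufficient iron were the highest of all 12. The clf effect there was 0.79 (95% interval 0.05 to 1.53, adjusted p 0.236) and 1.22 without the 4 libraries that stood apart (adjusted p 0.0433). The iron effect in clf was -1.07 (95% interval -1.80 to -0.33, adjusted p 0.156).

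**Figure D2:**
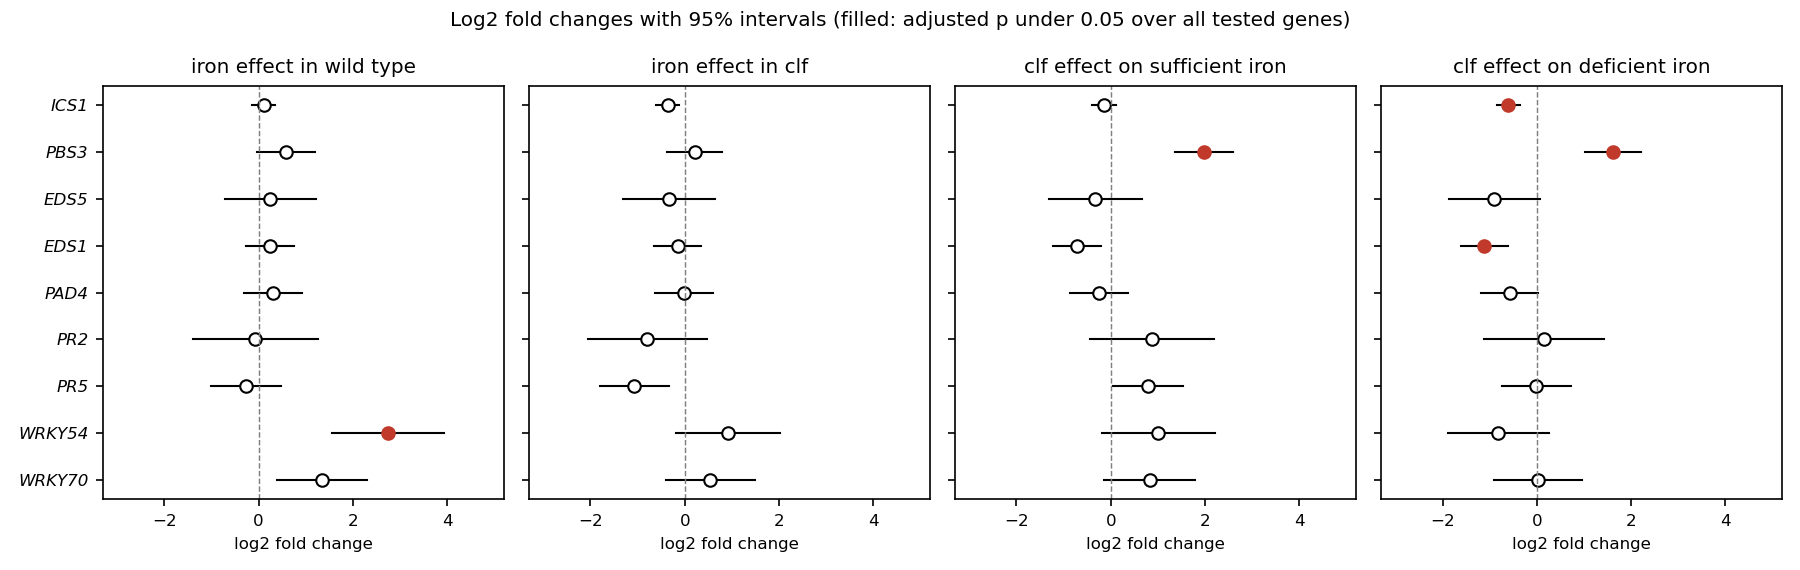
Log2 fold changes of the 9 tested genes in the 4 comparisons, with 95% intervals from the edgeR fit as bars. Filled red points passed at an adjusted p under 0.05 over all 19148 genes: WRKY54 at 2.74 for iron in wild type, PBS3 at 1.98 and 1.61 for clf, and ICS1 at -0.61 and EDS1 at -1.11 for clf on deficient iron.

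Averaged over the genotypes, the iron effect passed for WRKY54 (1.83, adjusted p 0.00907), 1 of 9 members against 13.6% of all genes. DESeq2 called PR5, which was lower, and WRKY70 beside it (18.3% of all genes), and PBS3 and WRKY70 passed beside it without the 4 libraries that stood apart (23.9%). Averaged over the iron levels, the clf effect passed for PBS3 (1.80, adjusted p 0.000239), EDS1 and ICS1 (-0.37, adjusted p 0.0108), 3 of 9 members against 12.7% of all genes called, 7.76% higher and 4.94% lower. The averaged ICS1 difference did not pass in the 3 limma fits on log2 FPKM (-0.28 to -0.27, adjusted p 0.107 to 0.120). PR5 passed beside the 3 without the 4 libraries that stood apart (0.80, adjusted p 0.0333, 22.5% of all genes), and PAD4 did with those libraries as a model term (-0.39, adjusted p 0.0258, 25.9% of all genes). For the interaction (iron effect in clf less the one in wild type), edgeR called 0 of 9 members, with ICS1 and WRKY54 at an unadjusted p under 0.05, and DESeq2 also called 0, against 0.501% of all genes. Over all genes 0.00522% passed that test, a single gene. In these bulk samples, fewer cells of a type and less RNA per cell cannot be told apart. Leaf markers moved with iron: 4 of 8 fell in wild type and 2 of 8 in clf, against 4.52% and 0.768% of all genes. Their summed level was 99360 to 113900 CPM in wild type on sufficient iron, 62750 to 68410 CPM on deficient iron, 80660 to 91990 CPM in clf on sufficient iron and 54430 to 66630 CPM on deficient iron. Of 13 tested root markers 0 passed for iron in either genotype by edgeR, with 0 in wild type and 5 in clf at an unadjusted p under 0.05, and 0 and 2 were called by DESeq2. For clf on deficient iron, where ICS1 and EDS1 were lower, GL2 of the root list was higher (1.01, adjusted p 0.0113). GL2 was higher in clf on sufficient iron too (0.86, adjusted p 0.0292, lost in 6 of 12 fits without a single library). COBL9, a root hair gene, was lower in clf on deficient iron (-2.88, adjusted p 0.0432). That call was lost in 11 of 12 fits without a single library, with an adjusted p of up to 0.142. For clf on deficient iron 5 of 13 root markers were at an unadjusted p under 0.05, and the median of the list was -0.69. Of the 5, GL2 was higher and COBL9, BGLU23, NRT2.1 and LRX1 were lower. The 14 root markers summed to 458 to 566 CPM in wild type and 354 to 438 CPM in clf on deficient iron, without overlap, and to 510 to 768 and 447 to 625 CPM on sufficient iron. The fall of the leaf marker LHCB2.1 in clf had an adjusted p of 0.0591 with the replicate number as a block. It lost its call in 9 of 12 fits without a single library, with an adjusted p of up to 0.14. The part of these shifts in the results was not tested.

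Enzymes that make, convert or store salicylic acid or pipecolate, the latter a precursor of a second immune signal, were read from a list of 17 genes, of which 13 were tested. For iron in wild type 1 rose and 1 fell (median log2 fold change 0.04), against 4.61% and 4.52% of all genes. DMR6, which hydroxylates salicylic acid and so lowers it, rose from 18.3, 16.6 and 17.5 CPM to 85.1, 56.7 and 48.7 CPM, a log2 change of 1.86 (SE 0.18, adjusted p 0.000216) with no overlap. In clf it rose from 14.6, 14.3 and 17.5 CPM to 32.3, 30.2 and 31.8 CPM, a change of 1.02 (SE 0.18, adjusted p 0.0206) that lost its call in 4 of 12 fits without a single library, with an adjusted p of up to 0.107. On deficient iron DMR6 was lower in clf than in wild type (-1.01, adjusted p 0.00821), while the difference between its iron effects, -0.84, had an adjusted p of 0.511.

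UGT74F2, a glucosyltransferase that forms the glucose ester of salicylic acid, stood at 203, 207 and 149 CPM in iron-sufficient wild type, 134, 134 and 126 CPM in iron-deficient wild type, 253, 274 and 213 CPM in iron-sufficient clf, and 246, 231 and 219 CPM in iron-deficient clf. In wild type the iron-deficient libraries were all below the iron-sufficient ones. That change was -0.50 on the log2 scale (SE 0.14, adjusted p 0.0452), and 10 of 12 fits without a single library lost it, with an adjusted p of up to 0.146. On deficient iron it was higher in clf by 0.82 (adjusted p 0.00643) without overlap, and on sufficient iron by 0.41 (adjusted p 0.129). On deficient iron 2 enzyme genes were higher and 2 lower in clf, against 4.01% and 2.46% of all genes. On sufficient iron 0 of 13 passed by edgeR, with 4 at an unadjusted p under 0.05 and EPS1 called by DESeq2. Without the 4 libraries that stood apart, EPS1 and UGT74F2 were higher there, and PAL1, a phenylalanine ammonia-lyase gene, joined the genes that rose with iron deficiency in wild type and those lower in clf on deficient iron. PAL3 then fell with iron deficiency in clf.

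The other changed pair of enzyme genes acts beside ICS1 and PBS3. ICS2, the second isochorismate synthase gene, held 6.30, 3.86 and 3.72 CPM in wild type on deficient iron against 1.75, 1.60 and 1.56 CPM in clf. That difference was -1.497 (SE 0.26, adjusted p 0.00770), and on sufficient iron it was -0.51 (adjusted p 0.333). ICS2 overlaps AT1G18871 on the opposite strand, so the same limit applies as for EDS5. EPS1, whose product acts after PBS3, held 3.57, 2.09 and 3.41 CPM in wild type on deficient iron against 10.3, 7.16 and 5.64 CPM in clf. That difference was 1.35 (SE 0.30, adjusted p 0.0245), lost in 5 of 12 fits without a single library with an adjusted p of up to 0.102, and on sufficient iron it was 0.98 (adjusted p 0.102). Thus ICS1 and ICS2 were lower and PBS3 and EPS1 higher in clf than in wild type on deficient iron, each past the threshold over all genes.

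**Figure D3:**
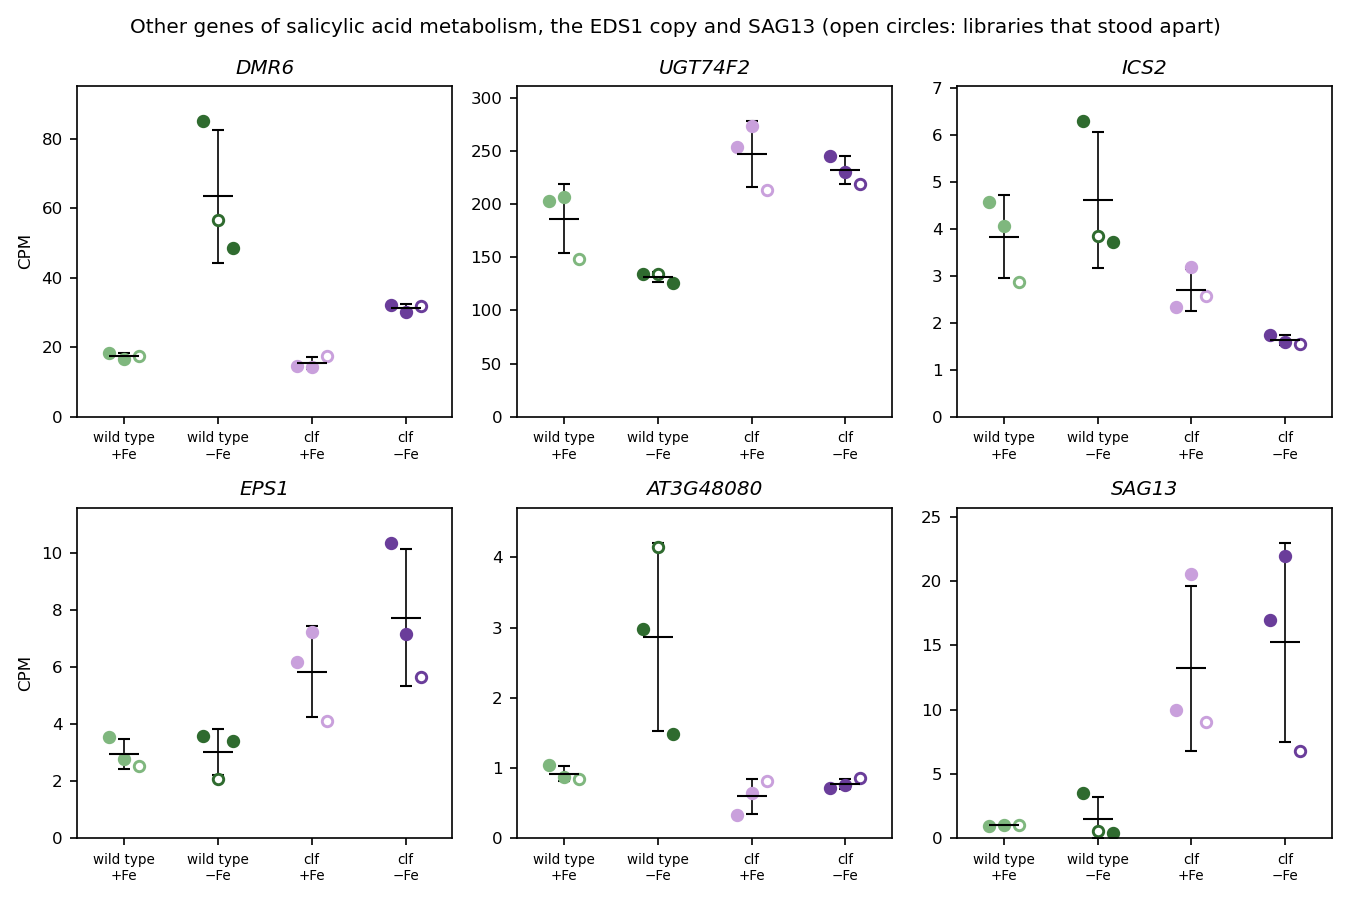
CPM in each of the 12 libraries of DMR6, UGT74F2, ICS2 and EPS1 of salicylic acid metabolism, of AT3G48080 next to EDS1, and of the senescence gene SAG13, with group means and ± 1 SD (n = 3). Open circles are the libraries that stood apart. DMR6 rises with iron deficiency in both genotypes, from at most 18.3 to at least 48.7 CPM in wild type, and SAG13 is above 6 CPM in the clf libraries only.

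Of 22 regulators of salicylic acid synthesis and response, among them SARD1, CBP60G, NPR1, NPR3, NPR4 and the TGA factors, 21 were tested. With all 12 libraries edgeR called 0 of them in each of the 4 comparisons, with 2 at an unadjusted p under 0.05 for iron in wild type, 1 for iron in clf, 1 for clf on sufficient iron and 2 for clf on deficient iron. DESeq2 called NPR4, a salicylic acid receptor, higher for iron in wild type and 0 in the other 3. Without the 4 libraries that stood apart, where 20 were tested, edgeR called NPR4 higher and ADR1-L1 lower for iron in wild type and 0 for iron in clf. It then called ADR1 higher and TGA4 lower for clf on sufficient iron, and TGA4 and SAG101 lower for clf on deficient iron. ADR1 and ADR1-L1 are helper immune receptors, and SAG101 is a relative of PAD4 that also pairs with EDS1. With those libraries as a model term, the calls were NPR4 higher for iron in wild type, SAG101 lower in clf on sufficient iron, and SAG101 and GRX480 lower in clf on deficient iron. GRX480 was at 19.9 CPM in the iron-deficient wild-type library that stood apart and at 0.172 and 0.368 CPM in its companions. On deficient iron it was at 0.0314 to 0.335 CPM in clf. With all libraries the medians of the list lay between -0.24 and 0.02. Averaged over the genotypes, TGA2, a bZIP factor, rose with iron deficiency (0.39, adjusted p 0.0242), and averaged over the iron levels NIMIN3, an NPR1-interacting protein, was higher in clf (0.39, adjusted p 0.0498). Both averaged calls are near the threshold: 6 and 10 of 12 fits without a single library lost them, with adjusted p up to 0.0671 and 0.110.

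Several of these regulators were high in the 4 libraries that stood apart. SARD1, which activates ICS1, was at 5.60, 17.4, 7.10 and 5.25 CPM in those libraries and at 0.437 to 3.98 CPM in the other 8. CBP60G, which acts with SARD1, was at 23.3, 57.5, 29.0 and 11.2 CPM in them and at 3.13 to 9.34 CPM in the other 8. In all, 10 of the 21 tested regulators had their highest value in that library in all 4 groups, as did 14.1% of all tested genes. Of the members, EDS5 and PAD4 did so in all 4 groups, and EDS1 and WRKY70 in 3. PBS3 had its lowest value there in 3 groups. ICS1 itself was at 18.8, 22.7, 16.2 and 13.8 CPM in those libraries, within 0.26 on the log2 scale of the mean of its 2 companions in each group.

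**Figure D4:**
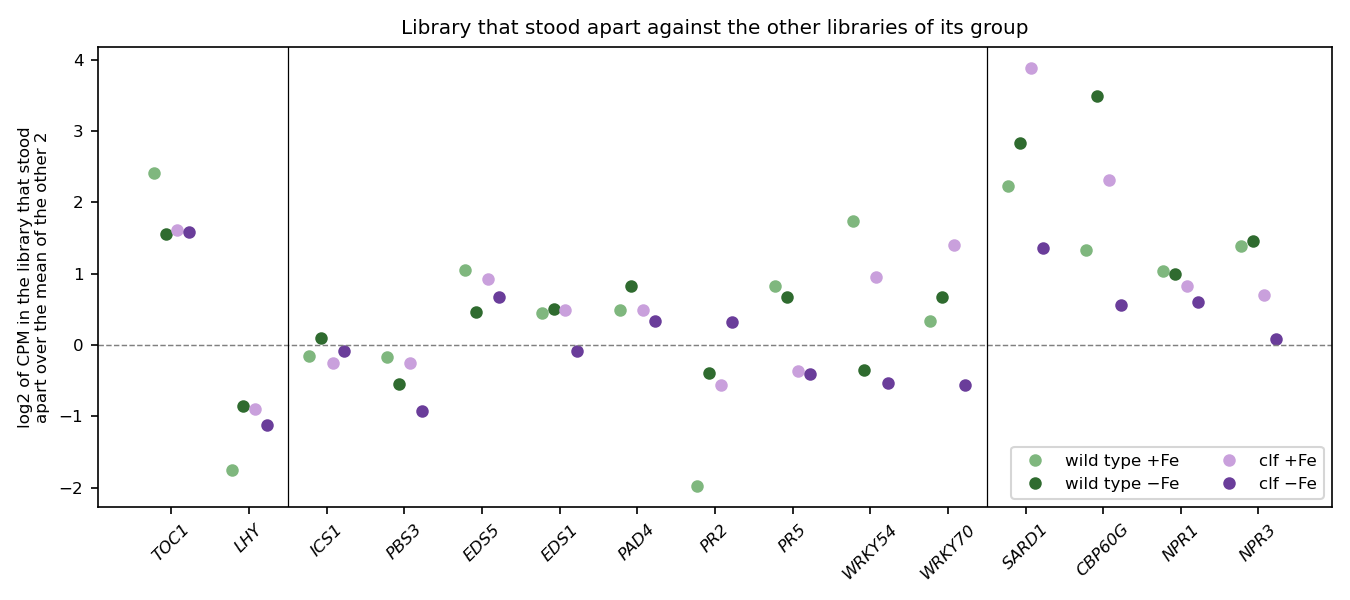
For each of the 4 groups, the log2 ratio of CPM in the library that stood apart over the mean of the other 2, for the clock genes TOC1 and LHY (left), the 9 tested members (middle) and 4 regulators (right). Points above the dashed line are higher in that library. SARD1, CBP60G, NPR1, EDS5 and PAD4 lie above the line in all 4 groups, and ICS1 stays near it.

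WRKY54 and WRKY70 belong to group III of the WRKY family, of which 6 of 13 listed genes were tested. For iron in wild type WRKY54 was called with all libraries, and WRKY70 beside it by DESeq2 and without the 4 libraries that stood apart. Without them WRKY53 also passed, higher with iron deficiency in clf beside WRKY54 and WRKY70, and lower in clf on sufficient iron. With all libraries both WRKY53 values had the opposite sign, at -1.08 (adjusted p 0.756) and 1.31 (adjusted p 0.608). WRKY46 and WRKY53, related factors of the same group, were at 61.1 and 27.5 CPM in the wild-type library on deficient iron that stood apart and at no more than 0.773 and 5.38 CPM in its 2 companions, and neither passed there with all libraries (adjusted p 0.461 and 0.335). The median of the 6 was 1.68 for iron in wild type and 0.50 in clf. WRKY55, the neighbour of WRKY54 at 919 bases on the opposite strand, stayed at or below 0.617 CPM.

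Among 10 relatives and neighbours of the members 5 were tested. AT3G48080, next to EDS1, was at 1.05, 0.880 and 0.839 CPM in iron-sufficient wild type, 2.98, 4.15 and 1.48 CPM in iron-deficient wild type, 0.328, 0.641 and 0.823 CPM in iron-sufficient clf, and 0.720, 0.754 and 0.854 CPM in iron-deficient clf. It rose with iron deficiency in wild type (1.62, SE 0.41, adjusted p 0.0338; adjusted p 0.126 without the 4 libraries that stood apart, and lost in 8 of 12 fits without a single library) and was lower in clf on deficient iron (-1.87, SE 0.40, adjusted p 0.0207, lost in 4 of 12 fits). TLP-3, a thaumatin-like gene next to PR5, was at 3.77, 3.79 and 3.24 CPM in clf on sufficient iron and at 1.17, 1.13 and 0.945 CPM on deficient iron. Its fall with iron deficiency in clf was -1.73 (SE 0.25, adjusted p 0.00766), and in wild type its change was -0.79 (adjusted p 0.0775). PRB1, BG1, BG3 and AT1G75050, relatives of PR1, PR2 and PR5, stayed at or below 0.493 CPM in every library.

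Jasmonate and ethylene are the hormones of defence most often set against salicylic acid. Of 21 listed genes of these responses 19 were tested, and VSP1 and VSP2, jasmonate-inducible storage protein genes, were the 2 called for clf at each iron level by edgeR with all libraries. They were higher by 3.28 and 3.24 on the log2 scale on sufficient iron and by 2.21 and 2.66 on deficient iron, with adjusted p of at most 0.000265. Over all genes 4.91% passed on sufficient and 6.47% on deficient iron. The median of the list was -0.93 on sufficient and -0.75 on deficient iron. Averaged over the iron levels, PR3, a basic chitinase gene, was also higher in clf (0.97, adjusted p 0.0336), while AOS (-1.60, adjusted p 0.00671) and AOC2 (-1.80, adjusted p 0.0334), jasmonate synthesis genes, were lower. That averaged test called 7.76% of all genes higher and 4.94% lower. The averaged calls of PR3 and AOC2 were lost in 8 and 6 of 12 fits without a single library, with adjusted p up to 0.0866 and 0.0886. That of AOS was lost in 0. DESeq2 called the same 5 genes (VSP1, VSP2, PR3, AOS and AOC2) on sufficient iron, as did edgeR without the 4 libraries that stood apart. Those fits called 8.75% and 10.2% of all genes there. Without the 4 libraries, MYC2, VSP1 and VSP2 were higher and AOS, AOC2 and JAR1 lower in clf on deficient iron, where 16.9% of all genes passed. With all libraries the MYC2 difference there had the opposite sign, at -1.60 (adjusted p 0.576). With all libraries VSP1 and VSP2 fell with iron deficiency in clf, to 0.407 and 0.501 of their levels (adjusted p 0.0106 and 0.00726). Over all genes 0.768% were called lower there. The VSP1 fall had an adjusted p of 0.0557 without replicate 2 of clf on sufficient iron. For iron in wild type 0 of 19 passed by edgeR, with 1 at an unadjusted p under 0.05 and 0 by DESeq2. Without the 4 libraries, where 20 were tested, AOS and JAR1 rose and AOC2 fell with iron deficiency in wild type (16.9% of all genes passed). In clf MYC2 rose and AOC2, VSP1, VSP2 and PR3 fell in that fit (8.69%). With all libraries the signs of AOS, JAR1 and MYC2 were the opposite, at -0.05, -1.315 and -0.53 (adjusted p 0.963, 0.261 and 0.922).

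Salicylic acid also takes part in leaf senescence, and all 9 listed senescence genes were tested. On deficient iron 4 were higher and 1 lower in clf, against 4.01% and 2.46% of all genes. On sufficient iron 2 were higher, against 3.59% of all genes. The medians of the list were 1.10 on deficient and 1.02 on sufficient iron. SAG13, a dehydrogenase gene induced early in senescence, ranged from 6.80 to 22.0 CPM over the 6 clf libraries, all above the wild-type libraries, of which the highest was at 3.498 CPM. Its clf effects were 3.69 (adjusted p 0.0243) and 3.35 (adjusted p 0.0243), lost in 5 and 4 of 12 fits without a single library, with adjusted p up to 0.0914 and 0.0871. NAP, a senescence NAC factor, was higher by 2.72 in clf on deficient iron (adjusted p 0.00448), and NYE1, which starts chlorophyll breakdown, by 0.86 and 0.79 (adjusted p 0.0276 and 0.0313, each lost in 5 of 12 fits). SAG12, a cysteine protease gene, had 0 reads in the wild-type groups and 26 and 68 in the clf groups. With 3 counts set in place of the 0 of the group, that is at least 7.44-fold higher on sufficient and at least 21-fold higher on deficient iron, where the call (adjusted p 0.0485) was lost in 9 of 12 fits. For iron in wild type SAG29, a sugar transporter gene, rose by 4.46 (adjusted p 9.99e-05), while SEN1 and NAP fell by 1.94 and 1.60 (adjusted p 0.0103 and 0.0376). SEN1 lost its call without replicate 1 of wild type on deficient iron (adjusted p 0.0523) and NAP in 9 of 12 fits. SAG29 was the gene that was lower in clf on deficient iron (-1.83, adjusted p 0.0115), a call lost without replicate 1 of that clf group (adjusted p 0.0592). For iron in clf edgeR called 0 of 9, with SAG29 at an unadjusted p under 0.05. SAG29 was called higher there by DESeq2 and with the term for the 4 libraries that stood apart. Without those libraries, SAG29 and WRKY53 rose and SEN1 fell with iron deficiency in clf. With all libraries the WRKY53 change there had the opposite sign, at -1.08 (adjusted p 0.756). Without the 4 libraries the counts for clf were 4 higher and 1 lower on sufficient iron and 6 higher and 1 lower on deficient iron. Of all genes, 10.2% and 16.9% passed in those fits, in either direction. The part of senescence in the values of PBS3, ICS1 and EDS1 was not tested.

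By the rule of the widest range over the 12 libraries, PR1, WRKY54 and PR2 were compared with all tested genes for likeness of pattern, measured as the mean absolute difference of log2 CPM after centring each gene on its own mean. Nearest to WRKY54 were CSLG1 at 0.36, AT1G33260 at 0.45, PUM9 at 0.47, AT5G08760 at 0.48 and AT3G51670 at 0.49 on that scale. CSLG1 stayed below 1.00 CPM and PUM9 below 0.60 CPM, while AT3G51670 ranged from 38.1 to 253 CPM. Nearest to PR1 were AT1G30760 at 0.69, JRG21 at 0.71, CHI at 0.78, AT1G74010 at 0.80 and AT4G16260 at 0.81, and nearest to PR2 were RLP29 at 0.27, AT1G43770 at 0.30, AT3G11690 at 0.31, RAD51D at 0.32 and AT5G46270 at 0.33. The counts of PR1 and PR2 are low, and these likenesses are a description of 12 libraries.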

How the data were processed

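Strand-marking mRNA libraries of 12 samples were sequenced, per the labels' protocols, and TopHat2 and TAIR10 are named, without versions, by the submitters' processing notes. The deposited counts are whole numbers of reads per gene, and the deposited FPKM values were made by the authors from those counts: in all 12911 genes above 50 counts throughout, the ratio of the 2 tables followed library totals to a relative 1e-09. The counting tool, strand setting and annotation version are not given in the sources used. Names and positions were looked up in TAIR10.1, where 31912 identifiers were found.

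Genes were filtered with filterByExpr (minimum count 10, minimum total 15), TMM-scaled and modelled in edgeR 4.0.16 (glmQLFit; R 4.3.3, 8 residual degrees of freedom) over all 12 libraries in 4 groups taken from the titles. glmQLFTest p-values were Benjamini-Hochberg adjusted over 19148 genes and called under 0.05. CPM are TMM-scaled. Alternatives were DESeq2 1.42.0, limma 3.58.1 on log2(FPKM + 0.5) or log2(FPKM + 0.1), DESeq2 size factors, no filter, a replicate block, a term for or omission of the 4 libraries that stood apart, and omission of each library. The fit was also run on simulated data with known changes. Those libraries were drawn independently and with none that stands apart, so that run does not cover these features of the data. No library pair had identical counts. No label says what a replicate number marks. Deviations of same-numbered libraries correlated over 0.1 in 3 of 3 pairs for clf on sufficient iron (0.289 to 0.641) and iron in clf (0.176 to 0.509). They did so in 1 of 3 pairs for iron in wild type and for clf on deficient iron. Whether the numbers pair samples is thus not settled. The main fit has no term for them, and only the replicate block does. In 3 groups the library that stood apart is replicate 3. Over all groups, 4 of 12 libraries correlated best with their own number. The named genes are all 10 members, up to 6 called genes of each other list per comparison with the smallest adjusted p, any relative or neighbour, and 5 like genes for each of 3 members; other values named were chosen after they were seen. The members and lists were chosen with earlier results of these data known.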

Additional observations from a re-analysis of the deposited data

Results flagged for a closer look

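PR1 had 91 reads in replicate 2 of clf on sufficient iron, while the 11 other libraries held between 0 and 10. PR1 did not pass the filter on low counts and so was tested only in the fits without that filter. The value is reported here because it stands above the counts of the wild-type libraries.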

How the results depend on the processing

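For iron in wild type, 2 of 9 members passed in place of 1, with WRKY70 beside WRKY54, by DESeq2, by limma on log2(FPKM + 0.5) or log2(FPKM + 0.1) with the filter and on log2(FPKM + 0.5) without it, with a term marking the 4 libraries that stood apart and without those libraries. For iron in clf, 2 passed in place of 0 without the 4 libraries. For clf on sufficient iron, 2 passed in place of 1 by DESeq2 and with the term, and 3 without the 4 libraries. For the mean iron effect, 3 passed in place of 1 by DESeq2 and without the 4 libraries, and 2 by the 3 limma fits and with the term. For clf on deficient iron and for the mean clf effect, the 3 limma fits called 2 in place of 3, without ICS1, and the term 4, with PAD4; the mean clf effect gave 4 without the 4 libraries, with PR5. The cause was not tested. Omitting each library in turn gave 0 to 2 members for iron in wild type, 0 to 0 for iron in clf, 1 to 1 for clf on sufficient iron, 1 to 3 for clf on deficient iron, 0 to 0 for the interaction, 1 to 2 for the mean iron effect and 3 to 3 for the mean clf effect. Over single members, no called value changed sign; 26 values newly passed, 11 no longer did and 1293 stayed on their side of the threshold.

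Limma on FPKM, which carries no TMM factor, moved the median of all genes to 0.22 for iron in wild type and the share of higher calls from 50.5% to 84.8%; for clf on deficient iron the share went from 62.0% to 74.9%. Of all genes, DESeq2 called 13.7% for iron in wild type and the fit with the term 21.5%, against 9.12%.

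The replicate block left the member counts at 1, 0, 1 and 3 in the 4 comparisons, 0 for the interaction and 1 and 3 for the mean iron and clf effects. Among the other genes named, it ended the calls of AT3G48080 (adjusted p 0.0552) and NAP (0.0577) for iron in wild type, of LHCB2.1 (0.0591) for iron in clf, and of SAG12 (0.101) and COBL9 (0.0586) for clf on deficient iron. Low counts limit PR1, PR2, EDS5 and AT3G48080.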
